A study of Mus musculus with 8 samples.

Results

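Natural killer (NK) cells were examined among stromal vascular cells of mouse inguinal fat, those left after digestion of the fat pad and loss of the floating adipocytes. Members were selected on measured values, cell by cell. A barcode was kept with 700 to 30000 unique molecular identifiers (UMIs, counted transcript molecules), 200 to 8000 genes and at most 10% of UMIs from the mitochondrial genome. A kept cell was taken as an NK cell when it had no UMI of Cd3d, Cd3e or Cd3g, at least 1 UMI of Ncr1, Klrb1c or Eomes together, at least 2 UMIs of Nkg7, and no UMI of Cd79a, C1qa, Pdgfra or Pecam1. This gate took 172 of 36370 kept cells.

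The series held 8 droplet libraries (10x Genomics, 3' chemistry) of C57BL/6 mice (C57BL/6J in the study). Ad libitum feeding (Ad-Lib) was represented by 4 libraries, numbered 1, 3, 5 and 7, and timed night feeding (TAN) by 4, numbered 2, 4, 6 and 8. TAN mice had 2 meals a night, and no other agent or allele separated the groups. The study also reported a modestly lower food intake with TAN than with ad libitum feeding. The labels gave an age of 8 weeks and no sex, whereas the study described older male mice on months of either regimen, so the age is not certain. The labels did not say how many mice stood behind a library, whereas the study treated each as an animal replicate, and a p-value over libraries measures the spread between these libraries. The study described removal of the lymph node before digestion.

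NK cells are innate lymphocytes that kill infected, stressed or transformed cells without a rearranged antigen receptor. Perforin opens the target membrane and granzymes enter through it, while a balance of activating receptors (NKG2D, NKp46) and inhibitory receptors (Ly49, NKG2A) that read MHC class I decides whether a cell is attacked. In adipose tissue they are known as a source of interferon gamma, and they lie beside type 1 innate lymphoid cells (ILC1), resident relatives that depend less on Eomes.

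The 8 libraries held 25320800 to 37140950 UMIs and 3717 to 5654 kept cells. Pairs of libraries shared at most 16 cell barcodes, and no NK barcode was shared. NK cells numbered 32, 34, 21 and 23 in Ad-Lib 1, 3, 5 and 7, and 13, 19, 16 and 14 in TAN 2, 4, 6 and 8. The median depth of an NK cell lay between 4356 and 5908 UMIs in the 8 libraries and was lower in every TAN library than in every Ad-Lib library (4565 ± 200 against 5395 ± 556, SD, n = 4 each, exact permutation p = 0.0286, two-sided). Expression levels below are CPM, the UMIs of a gene scaled to the same total in every library, from the counts summed over a library's NK cells, so that 1 UMI was worth 5.35 to 16.3 CPM.

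The gate genes themselves had to be as the gate set them and are given as a description. Ncr1, which encodes NKp46 (chr7:4337724-4345164, build GRCm38), had a UMI in 164 of the 172 cells. Klrb1c, which encodes NK1.1 (chr6:128778485-128789215), had one in 156. Eomes, a T-box transcription factor (chr9:118478212-118486132), had one in 85. Nkg7, a protein of cytotoxic granules (chr7:43437073-43438249), had a median of 11 UMIs per cell, with a range of 2 to 35. Both Ncr1 and Klrb1c were seen in 148 cells, and all 3 positive markers with Eomes in 75. Just inside the gate, the 7 cells with exactly 2 Nkg7 UMIs all had Fcer1g and Tyrobp. Just outside, 4 cells had 1 Nkg7 UMI and 12 had none, and of those 12 only 5 had Tyrobp while 9 had Cd74. A further 12 cells met every condition but for a single Cd3 UMI, and 335 had at least 2. The 4 other-lineage genes kept out 45 cells, all 45 of which had Fcer1g and Tyrobp.

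Genes that the gate did not use were those known of NK cells. Fcer1g, the gamma chain that couples NKp46 to signalling, had a UMI in 172 of 172 cells. Tyrobp, the DAP12 adaptor, had one in 171, Ccl5 in 168, Klrk1 (NKG2D) in 166, Il2rb (the beta chain of the IL-2 and IL-15 receptors) in 166 and Klrd1 (CD94) in 158. T cell transcripts separated from each other. Trac, the alpha chain constant gene, was seen in 2.91% of NK cells (95% Clopper-Pearson interval 0.95 to 6.65%) and in 81.1% of cytotoxic T cells, the 1303 kept cells with a Cd3 UMI, at least 2 Nkg7 UMIs and the same other-lineage genes at 0. Cd8a was seen in 0 of 172 NK cells, so that up to 1.74% of cells with a UMI is allowed (3 cells of the total), which does not limit the share of cells that express it, and in 66.1% of the cytotoxic T cells. Cd4, Cd8b1, Cd5, Cd6 and Themis were also at 0 in NK cells. Trbc1, a constant gene of the T cell receptor beta chain, was however seen in 132 NK cells and Trbc2 in 75, and 139 cells held one or both without Trac. Whether these UMIs came from rearranged transcripts, other transcripts of the beta locus or free RNA was not tested. Il1rl1, the IL-33 receptor that marks type 2 innate lymphoid cells, was at 0. Intervals and limits cover counting error only.

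**Figure D1:**
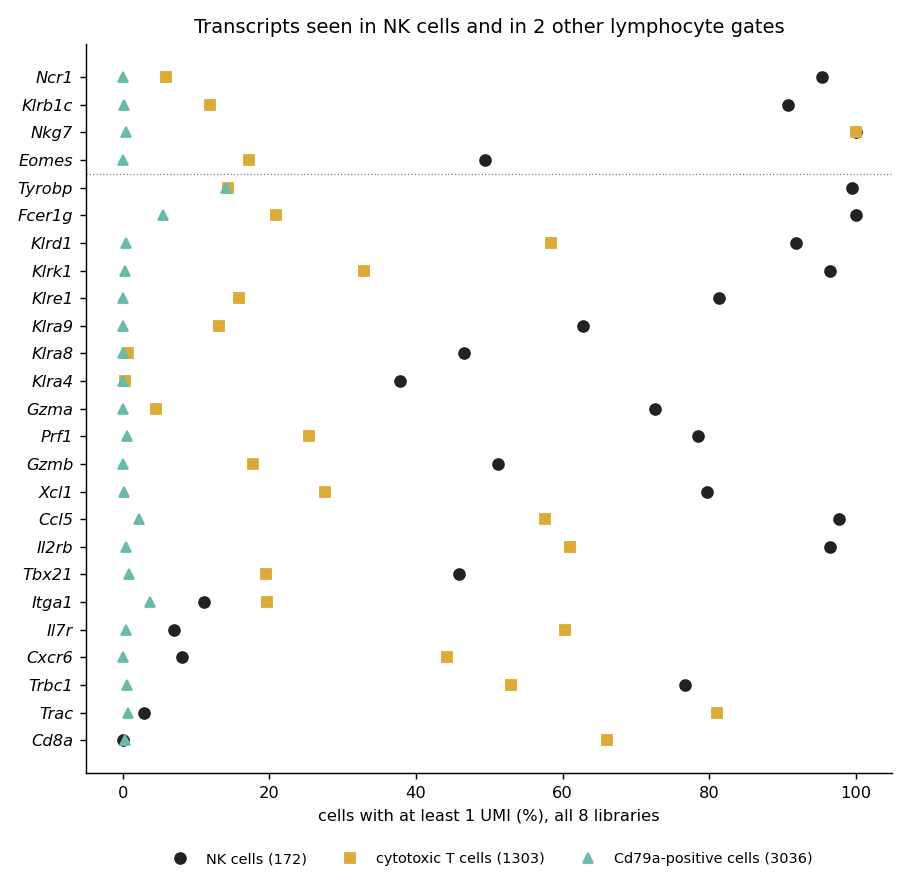
Share of cells with at least 1 UMI (%, x axis) of 25 genes in the 172 NK cells (circles), the 1303 cytotoxic T cells (squares) and the 3036 cells with Cd79a (triangles) of all 8 libraries. The 4 genes above the dotted line were used by the gate. Fcer1g and Tyrobp were in 100% and 99.4% of NK cells, and Trac in 2.91% against 81.1% of cytotoxic T cells.

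Markers of other cells were also summed. Of 10 marker lists of other cells, the summed level of the B cell list was 124 to 260 CPM over the 8 libraries and that of the dendritic cell list 0 to 16.1 CPM, with Flt3, Xcr1, Clec9a, Cd209a, Batf3 and Zbtb46 at 0. Ms4a1 and Cd79b, B cell genes, were at 0 as well. The macrophage and monocyte list, with Adgre1 and Fcgr1 at 0, lay at 60.7 to 391 CPM under Ad-Lib and 40.3 to 163 CPM under TAN. The T cell list, 6 of whose 12 measured members were seen, lay at 687 to 915 and 716 to 932 CPM, above its mean of 442 CPM in all other cells and below that of 3137 CPM in cytotoxic T cells. The ILC2 list, with Il1rl1, Il13 and Il5 at 0, lay at 134 to 265 and 77.5 to 242 CPM, with group means of 192 and 137 CPM above the 101 CPM of cytotoxic T cells and the 45.3 CPM of all other cells. The adipocyte list lay at 108 to 375 and 124 to 292 CPM, and the red blood cell list at 10.7 to 93.7 and 20.2 to 65.1 CPM. A few libraries stood apart. S100a8 and S100a9, granulocyte genes, reached 832 and 1652 CPM in Ad-Lib 3, where S100a8 came from 1 cell, and took the granulocyte and mast cell list there to 2587 CPM. The endothelial list reached 1001 CPM in 1 TAN library against at most 382 CPM in any Ad-Lib library. The progenitor list reached 1604 CPM in TAN 4, where Dcn stood at 625 CPM against 28 to 124 CPM in the other libraries. Doublets were not removed, and the part of these cells in the results below was not tested except where values without them are given.

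The 25 genes with the highest ratio of NK level to the level in all other kept cells, among the 2837 genes with a UMI in at least 20% of members, are a description of the gated cells and carry no test. Of these, 13 lay in 1 stretch of chromosome 6 (chr6:128609227-131353597), the natural killer gene complex, which encodes lectin-like receptors, and 12 had names beginning with Klr. The list was led by Klra4 (Ly49D, activating, ratio 778) and Klra8 (Ly49H, activating, ratio 611), followed by Ncr1 (455) and Gzma (325). The other receptors in it were Klri2 (279), Klrb1c (208), Klrb1a (143), Klre1 (135), Klrb1f (134), Klrc1 (121), Klra3 (105), Klrc2 (97.8), Klra9 (93.3) and Klrb1b (75.2). Effector genes were Prf1 (109), Xcl1 (102) and Gzmb (60.4). Signalling and transcription genes were Styk1 (141), Clnk (119), Il12rb2 (82.8), Samd3 (73.6), Il18rap (60.8), Eomes (59.7) and Tbx21 (56.4), which encodes T-bet. All 25 also had a higher mean CPM in NK than in cytotoxic T cells, by 88.0-fold for Klra4, 59.4-fold for Klra8 and 22.8-fold for Gzma, but by 2.59-fold for Tbx21 and 2.30-fold for Gzmb.

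The central result was the share of NK cells. NK cells made up 0.622%, 0.695%, 0.553% and 0.619% of kept cells in Ad-Lib 1, 3, 5 and 7. They made up 0.301%, 0.386%, 0.283% and 0.357% in TAN 2, 4, 6 and 8. Every TAN library lay below every Ad-Lib library, although the 95% Clopper-Pearson intervals of single libraries were wide, for example 0.232 to 0.602% in TAN 4 and 0.343 to 0.844% in Ad-Lib 5. The mean share was 0.622% ± 0.058 for Ad-Lib against 0.332% ± 0.048 for TAN (SD, n = 4 each), 1.88-fold lower with TAN (exact permutation p = 0.0286, the smallest that 4 against 4 libraries allow, two-sided). Adjustment over the 3 shares tested left it at 0.0286. The difference ended when cells with any T cell receptor UMI, Trbc1 and Trbc2 included, were also left out, which kept 25 NK cells (difference of -0.00902 percentage points, exact permutation p = 0.771). The mean shares were then 0.0747% for Ad-Lib and 0.0656% for TAN, from 1 to 5 NK cells per library. With only Trac, Cd4, Cd8a, Cd8b1, Cd5 and Cd6 also at 0, an alternative added after seeing the data, the difference was -0.273 percentage points (exact permutation p = 0.0286).

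**Figure D2:**
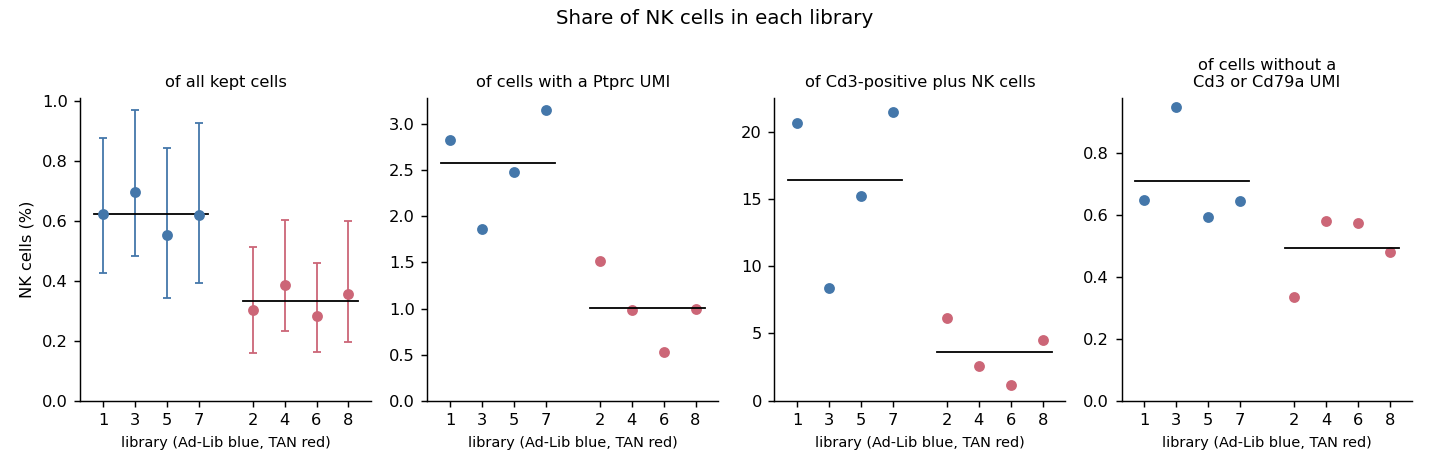
NK cells as a share (%, y axis) of all kept cells, of cells with a Ptprc UMI, of Cd3-positive plus NK cells and of cells without a Cd3 or Cd79a UMI, in each library (Ad-Lib in blue, TAN in red). Lines are group means and bars in the first panel are 95% Clopper-Pearson intervals. In all 4 panels the TAN libraries lie below the Ad-Lib libraries, most narrowly in the last, where the highest TAN value is 0.581% and the lowest Ad-Lib value 0.593%.

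The same order was seen with other denominators. Among cells with a UMI of Ptprc (CD45, the common leukocyte antigen), NK cells were 2.83%, 1.87%, 2.49% and 3.16% in Ad-Lib 1, 3, 5 and 7 and 1.52%, 0.983%, 0.530% and 0.997% in TAN 2, 4, 6 and 8. The means were 2.58% ± 0.55 and 1.01% ± 0.40 (SD, n = 4 each, exact permutation p = 0.0286). Among NK plus Cd3-positive cells the share was 20.6%, 8.37%, 15.2% and 21.5% in Ad-Lib 1, 3, 5 and 7. It was 6.13%, 2.61%, 1.16% and 4.50% in TAN 2, 4, 6 and 8, again without overlap (16.4% ± 6.0 against 3.6% ± 2.17, n = 4 each, exact permutation p = 0.0286). Leaving out 1 TAN library raised p to 0.0571 (exact permutation) for this share, whichever it was, and for the share of Ptprc cells when it was TAN 4, 6 or 8, while the share of kept cells stayed at 0.0286 without any 1 library. Without cells holding a T cell receptor UMI both calls ended (exact permutation p = 0.543 for Ptprc and 0.114 for NK plus Cd3-positive cells). With 1 to 5 NK cells left per library, the mean shares were then 1.45-fold and 2.73-fold lower with TAN, in the same order. The Ptprc call also ended with the gate thinned to 1500 UMIs per cell (exact permutation p = 0.0571).

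A share depends on what else was captured, and the mean shares of T and B cells were higher with TAN, though neither difference passed the test. Cd3-positive cells were 3.83% ± 2.54 of kept cells for Ad-Lib against 12.7% ± 8.6 for TAN (n = 4 each, exact permutation p = 0.0857), and Cd79a-positive cells 4.79% ± 7.10 and 11.2% ± 5.0 (exact permutation p = 0.2). A denominator without either was therefore added after the data had been seen. Pdgfra-positive cells, which it does not leave out, were lower with TAN, at 31.0% ± 5.5 of kept cells for Ad-Lib and 19.1% ± 5.9 for TAN (n = 4 each, exact permutation p = 0.0857). Of kept cells without a Cd3 or Cd79a UMI, NK cells were 0.647%, 0.948%, 0.593% and 0.645% in Ad-Lib 1, 3, 5 and 7 and 0.336%, 0.581%, 0.575% and 0.479% in TAN 2, 4, 6 and 8. The difference was smaller here, 0.708% ± 0.162 against 0.493% ± 0.114 or 1.44-fold (n = 4 each, exact permutation p = 0.0286). It missed the threshold without Ad-Lib 3 (difference of -0.136 percentage points, exact permutation p = 0.114), without any one of TAN 2, 4, 6 and 8 (-0.245 to -0.164 percentage points, exact permutation p = 0.0571 each), and when cells under 1500 UMIs were left out (exact permutation p = 0.2). It also missed it with the gate thinned to 1500 UMIs (-0.0945 percentage points, exact permutation p = 0.257), with Nkg7 at 1 or more or at 3 or more UMIs, and without the condition on the other-lineage genes or on Pecam1 (exact permutation p = 0.0571 to 0.0857). Without cells holding a T cell receptor UMI the direction reversed (0.00823 percentage points, exact permutation p = 0.771). Absolute numbers of NK cells per fat pad were not analysed here.

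NK cells were not uniform, and with the cells of all libraries pooled they differed with Eomes. Cells with an Eomes UMI (85) and cells without one (87) had like median depths, 4900 and 4947 UMIs. Of the 20 listed conventional NK genes 16 were split in this way, without Klra7, Cma1, Cym and Ncam1. Of these 16 genes, 12 were seen in a larger share of the cells with Eomes and 4 (Klra9, Klrg1, Cx3cr1 and Zeb2) in a smaller one. Gzma was seen in 94.1% of the cells with Eomes and 51.7% of those without, Klra8 in 63.5% and 29.9%, Klra4 in 56.5% and 19.5%, and Itgam (CD11b) in 38.8% and 17.2%. Klrg1 was in 14.1% and 20.7%, Zeb2 in 32.9% and 35.6% and S1pr5 in 15.3% and 14.9%. Of the 21 listed ILC1 and residency genes 15 were split, without Cd69, Gpr183, Ikzf2, Ahr, Itgae and Hic1. All 15 were seen in a smaller share of the cells with Eomes. How many of all genes went either way was not counted. Tmem176b was seen in 4.71% of the cells with Eomes and 34.5% of those without, Inpp4b in 5.88% and 36.8%, Tnfsf10 (TRAIL) in 11.8% and 29.9%, and Cxcr6 in 0% and 16.1%. Klra9 and Xcl1 were at nearly equal shares on either side. These values are a description with no test, since Eomes was a gate gene and a cell without an Eomes UMI may still express it. Ad-Lib 3 alone held 26 of the 87 cells without Eomes and 8 of the 85 with it. No value per library was computed for these genes, so differences between libraries are not separated from the split.

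**Figure D3:**
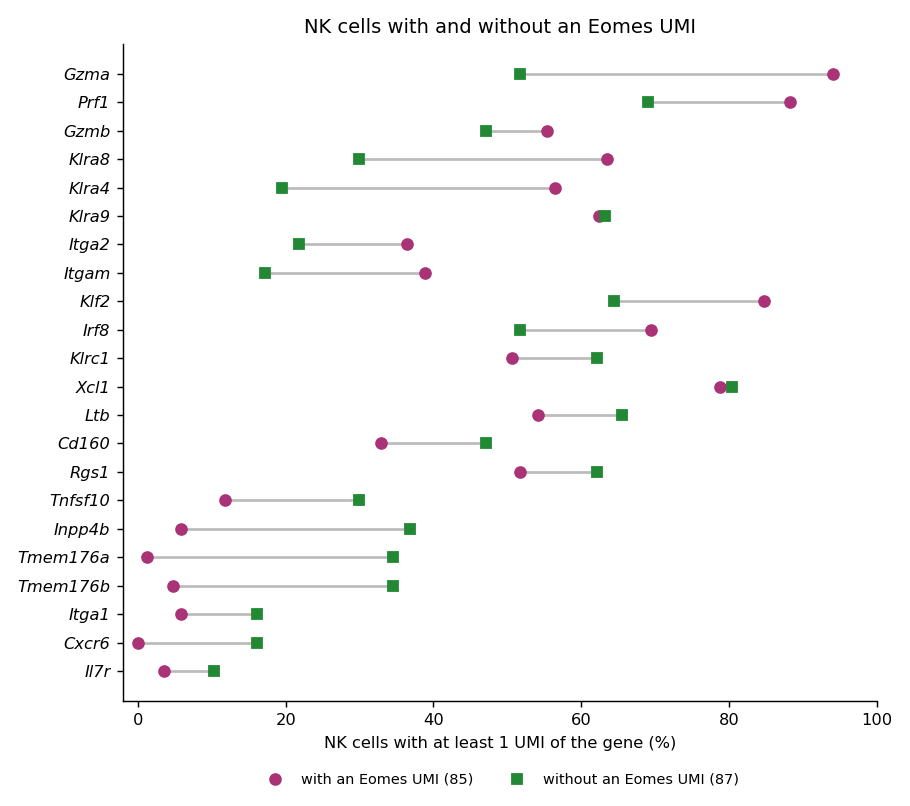
Share of NK cells with at least 1 UMI (%, x axis) of 22 genes, for the 85 cells with an Eomes UMI (circles) and the 87 without (squares), all 8 libraries together. Gzma, Klra8 and Klra4 lie to the right in cells with Eomes, and Tmem176a, Tmem176b, Inpp4b and Cxcr6 in cells without.

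Itga1 (CD49a, an ILC1 and residency marker) was seen in 19 NK cells (11.05%, beside 3.75% of Cd79a-positive and 19.6% of cytotoxic T cells), 14 of them without Eomes, while 80 cells had Eomes without Itga1 and 73 had neither. Rgs1 was in 89.5% of the Itga1 cells and 52.9% of the rest, and Inpp4b in 68.4% and 15.7%. S1pr5, an exit receptor of circulating NK cells, was in none of the 19 and in 17.0% of the rest. The share of NK cells with Eomes varied by library, at 53.1%, 23.5%, 66.7% and 65.2% in Ad-Lib 1, 3, 5 and 7 and 23.1%, 42.1%, 62.5% and 71.4% in TAN 2, 4, 6 and 8, so the groups overlapped. Pooled, Eomes was seen in 54 of the 110 cells from Ad-Lib mice against 31 of 62 from TAN mice. Of kept cells, the NK cells without Eomes were 0.292%, 0.531%, 0.184% and 0.215% in Ad-Lib 1, 3, 5 and 7 and 0.232%, 0.223%, 0.106% and 0.102% in TAN 2, 4, 6 and 8. Those with Eomes were 0.330%, 0.164%, 0.369% and 0.404% in the Ad-Lib and 0.0695%, 0.162%, 0.177% and 0.255% in the TAN libraries, in the same order.

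Ly49 receptors, which NK cells are known to switch on in varied combinations, were seen in 154 of the 172 cells. Of the 10 measured Ly49 genes, 48 cells had 1, 28 had 2, 41 had 3 and 37 had at least 4. Klra9 was seen in 108 cells, Klra8 in 80, Klra4 in 65, Klra7 (Ly49G, inhibitory) in 55, Klra3 (Ly49C, inhibitory) in 48 and Klra1 (Ly49A, inhibitory) in 18. Klrc1 (NKG2A, the other inhibitory receptor for MHC class I) was in 97 cells. It was in 15 of the 18 cells with no Ly49 UMI, which left 3 cells with neither kind of receptor. Of 6 cell cycle genes, any was seen in 5 of the 172 cells (4 Ad-Lib and 1 TAN), at least 2 UMIs together in 1 and Mki67 in 2, which does not limit the share of cells that were dividing.

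Whether gene levels in NK cells differed between the regimens was tested on counts summed per library with the quasi-likelihood test of edgeR. Calls needed a change of 1.5-fold or more together with an adjusted p (Benjamini-Hochberg) below 0.05. Of 1534 genes with enough counts, 0 were called (0%), while 78 had an unadjusted p under 0.05 (5.08%, 41 higher and 37 lower with TAN). DESeq2 called 0 as well, with 96 at an unadjusted p under 0.05. The median log2 change over all 1534 genes was 0.02, and its median standard error (SE) per gene was 0.29, so that small changes were not detectable at this depth. Without the filter on low counts, edgeR called 43 of 12451 genes, 7 higher and 36 lower.

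The 12 genes with the smallest unadjusted p were uncalled, with edgeR adjusted p of 0.741 to 0.798. Higher values with TAN were found for 7 of them. Jund, a subunit of the AP-1 transcription factor, stood at 1386, 1202, 992 and 1569 CPM in Ad-Lib 1, 3, 5 and 7 and at 1768, 1917, 1933 and 1921 CPM in TAN 2, 4, 6 and 8 (log2 change 0.56, SE 0.14). Btg2, an antiproliferative gene, stood at 749, 832, 836 and 887 CPM and at 1209, 1150, 1015 and 1351 CPM in the same order (log2 change 0.52, SE 0.14). Neither gene overlapped between the groups, which held for 6 of the 12 and for 41 of all 1534 genes tested (2.67%). Ccl3, a chemokine, stood at 155, 182, 266 and 311 CPM against 1163, 434, 181 and 326 CPM (log2 change 1.23, SE 0.35), with overlap and with TAN 2 far above the rest. Ccnd2, Selenow, Aak1 and mt-Co1 were the other genes with higher values. Lower values were found for Zbtb20 (log2 change -1.20, SE 0.35), Tut4 (-0.80, SE 0.25), Cox14 (-1.04, SE 0.35), Tuba1b (-1.17, SE 0.41) and Ptma (-0.40, SE 0.14).

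Of the 20 genes of the killing machinery 10 were tested, 0 were called and 0 had an unadjusted p under 0.05, and their median log2 change was -0.14, beside 0.02 over all genes. Gzma (granzyme A) stood at 3666, 4239, 3975 and 4086 CPM in Ad-Lib 1, 3, 5 and 7 and at 3489, 4237, 3740 and 4835 CPM in TAN 2, 4, 6 and 8 (log2 change 0.04, SE 0.12). The granzyme A level was uneven between cells, with no UMI in 47, a median of 14 and up to 116 UMIs. Prf1 (perforin) stood at 529 ± 70 and 481 ± 185 CPM (SD, n = 4 each; log2 change -0.16, SE 0.20), and Gzmb (granzyme B) at 486 ± 159 and 349 ± 125 CPM (log2 change -0.47, SE 0.23, edgeR adjusted p = 0.863). Srgn (serglycin, the granule proteoglycan) stood at 674 ± 159 and 621 ± 147 CPM and Ctsw (cathepsin W) at 534 ± 76 and 518 ± 99 CPM.

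Of the 10 cytokine and chemokine genes 7 were tested and 0 were called, with 1 in each direction at an unadjusted p under 0.05. Ccl5 stood at 8420 ± 1477 and 8190 ± 1074 CPM, Ccl4 at 1699 ± 870 and 1864 ± 958 CPM and Xcl1, which draws in cross-presenting dendritic cells, at 1430 ± 633 and 1385 ± 354 CPM (SD, n = 4 each). The gene with the lower value was Ifng (interferon gamma), picked out here after its values were seen. It stood at 300, 216, 172 and 781 CPM in Ad-Lib 1, 3, 5 and 7 and at 217, 202, 153 and 163 CPM in TAN 2, 4, 6 and 8 (log2 change -0.94), with overlapping groups and a single high library, Ad-Lib 7.

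Receptors did not pass the test either. Of 24 activating receptors and adaptors 18 were tested, with 0 called and 1 (Fcer1g, higher) at an unadjusted p under 0.05. Tyrobp stood at 2684 ± 90 CPM for Ad-Lib against 2608 ± 257 CPM for TAN, Fcer1g at 2160 ± 243 and 2665 ± 309 CPM, Klrk1 at 808 ± 76 and 962 ± 150 CPM and Hcst (DAP10, the adaptor of NKG2D) at 698 ± 89 and 610 ± 71 CPM. Of 14 inhibitory and checkpoint receptor genes 3 were tested. Klrd1, the partner of NKG2A, stood at 810 ± 77 and 842 ± 143 CPM and Klrc1 at 311 ± 87.5 and 344 ± 174 CPM. Ptpn6 (SHP-1, the phosphatase that inhibitory receptors recruit) stood at 54.6 ± 15.4 and 95.9 ± 59.5 CPM and was too low to be tested. Of 11 Ly49 genes 5 were tested, with a median log2 change of 0.31 and 0 called. Klra4 stood at 476 ± 193 and 570 ± 278 CPM, Klra9 at 423 ± 81 and 542 ± 225 CPM, and Klra7 at 190 ± 127 and 236 ± 127 CPM (n = 4 each).

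The balance of conventional NK and ILC1 genes was also compared through shares of NK cells with a UMI. Each cell was thinned to 1500 UMIs, since depths differed. Of 10 genes, 0 passed at an adjusted p under 0.05 (all 10 at 0.800, exact permutation tests, n = 4 libraries each) and 0 at an unadjusted p under 0.05. Itga1 was in 4.40% ± 2.97 of thinned cells for Ad-Lib against 2.6% ± 3.02 for TAN (12.4% and 5.51% before thinning), Itga2 (CD49b) in 9.08% ± 3.59 and 14.3% ± 4.8, Klra8 in 35.6% ± 11.2 and 32.7% ± 15.7, and Gzma in 71.2% ± 6.6 and 66.1% ± 19.5. In Cd79a-positive B cells, thinned alike, Gzma was in 0% (Ad-Lib) and 0.143% (TAN) of cells and Klra8 in none, but Itga1 was in 3.36% and 1.30% (6.24% and 3.32% before thinning), below its share in NK cells by less than the SD between NK libraries at 1500 UMIs. Of the 21 ILC1 and residency genes 5 were tested and of the 20 conventional NK genes 11, with 0 called and median log2 changes of 0.11 and 0.04.

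Transcription factors, cytokine receptors and trafficking genes held 0 called of 10, 5 and 15 tested, with median log2 changes of 0.03, 0.09 and -0.10. Id2, which innate lymphocytes need, stood at 550 ± 59 CPM for Ad-Lib against 656 ± 102 CPM for TAN, and Ets1 at 510 ± 32 and 461 ± 81 CPM. Il2rb stood at 865 ± 99 and 995 ± 203 CPM. Klf2, which keeps lymphocytes circulating, stood at 705 ± 220 and 807 ± 244 CPM, and Ccr2, a receptor for monocyte chemokines, at 565 ± 131 and 529 ± 157 CPM.

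Nutrient and timing genes were mostly too low to test. Of 25 genes of nutrient uptake, glycolysis and mTORC1, 10 were tested and 0 had an unadjusted p under 0.05. Gapdh stood at 491 ± 46 and 385 ± 37 CPM and Ldha at 238 ± 57 and 267 ± 49 CPM. Of 18 core clock genes 1 was tested, Bhlhe40 (210 ± 22 and 192 ± 99 CPM), and of 12 glucocorticoid-responsive genes 3, with 0 called. Of 25 interferon-induced genes 2 were tested, with Ifi203 at 221 ± 81 and 225 ± 117 CPM. Of 12 heat shock genes 7 were tested, with Hsp90aa1 (336 ± 52 and 218 ± 62 CPM, log2 change -0.62) at an unadjusted p of 0.0111 and an edgeR adjusted p of 0.798. Of 23 immediate early genes 18 were tested, with 0 called, 2 at a higher and 2 at a lower value at an unadjusted p under 0.05. Of 20 cell cycle genes 3 were tested, with Hmgb2 at 555 ± 276 and 371 ± 85 CPM.

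Mitochondrially encoded transcripts lay mostly on one side. Of 13 genes 12 were tested, 10 with higher and 2 with lower values in TAN, and 5 had an unadjusted p under 0.05, all of them higher. Their median log2 change was 0.27, and 0 were called. mt-Co1, a cytochrome c oxidase subunit, stood at 3318, 3703, 4061 and 4071 CPM in Ad-Lib 1, 3, 5 and 7 and at 4776, 4832, 5409 and 4070 CPM in TAN 2, 4, 6 and 8 (log2 change 0.35, SE 0.12). TAN 2, 4 and 6 lay above every Ad-Lib library and TAN 8 among them. The median mitochondrial share of an NK cell was 2.18% ± 0.34 and 2.61% ± 0.35 (n = 4 each, exact permutation p = 0.143), and the part of RNA quality in these values was not tested.

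**Figure D4:**
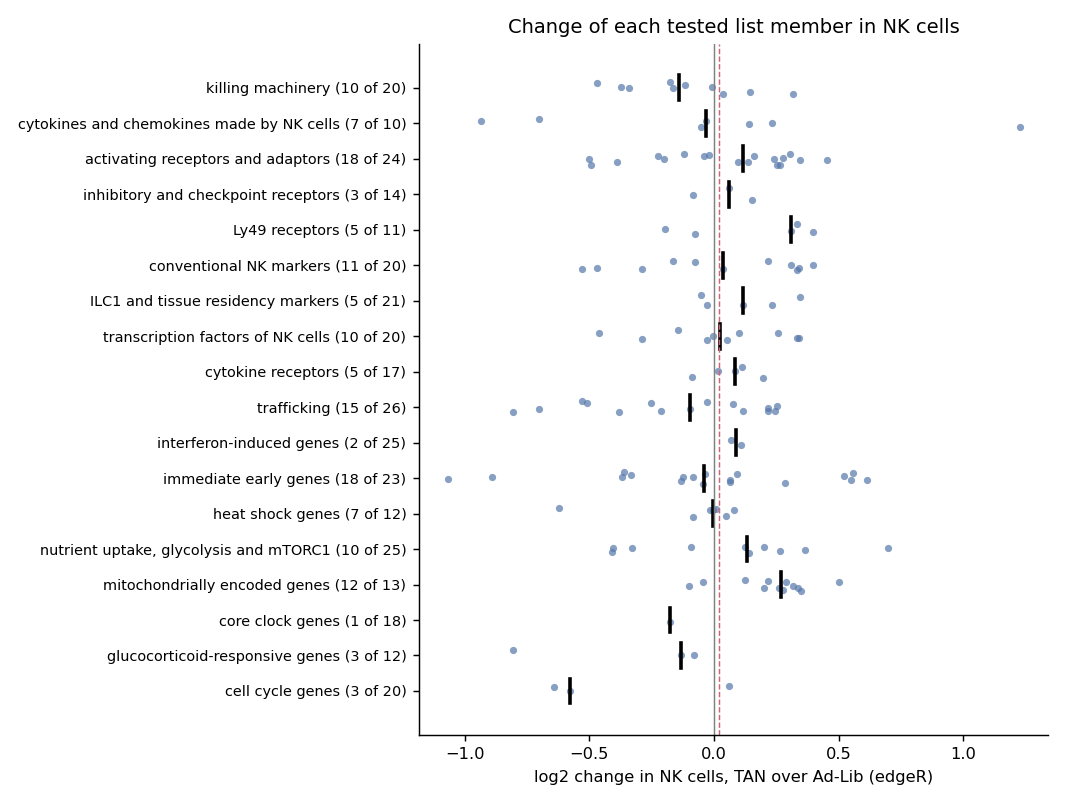
Log2 change with TAN (x axis, edgeR) of every tested member of 18 gene lists in NK cells. Each point is a gene, black bars are list medians, the dashed line is the median over all 1534 genes (0.02), and numbers give tested of listed genes. Mitochondrially encoded genes have a median of 0.27, and 0 genes in any list were called.

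Cytotoxic T cells of the same libraries, named for their gate on Cd3 and Nkg7, served as the nearest comparison. Gzma was seen in 72.7% of NK cells but 4.53% of these T cells, Prf1 in 78.5% and 25.5%, and Ccl4 in 69.8% and 20.3%. Il7r was seen in 6.98% of NK cells and 60.4% of these T cells, so the name stands for the gate only. These T cells made up 2.16% ± 1.31 of kept cells for Ad-Lib against 4.57% ± 2.41 for TAN (n = 4 each, exact permutation p = 0.171), against the lower NK share given above. Their summed counts gave 70 called genes of 6240 (1.12%, edgeR). A single fit with the library as a factor tested whether the TAN change of a gene differed between both cell types. Of 5081 genes, 83 were called (1.63%), with the change higher in NK cells for 37 (0.728%) and lower for 46 (0.905%), and 555 had an unadjusted p under 0.05. With RLE in place of TMM scaling 65 were called, 60.0% of them higher in NK cells against 44.6% in the TMM fit. The count varied with the library left out. It was 3 without TAN 4 or without Ad-Lib 7, 7 without Ad-Lib 1 and 13 without Ad-Lib 5. It was 25 without TAN 6, 36 without TAN 8, 118 without TAN 2 and 195 without Ad-Lib 3.

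Matrix and progenitor transcripts were among the 37, picked out here after their values were seen. Igfbp5, Clec3b, Dcn, Aebp1, C3, Col1a2, Igfbp6, Col1a1, Fn1 and Col3a1 made up 10 of them, and of 8 tested members of the adipocyte progenitor list 3 were called. Dcn, a matrix proteoglycan of fibroblasts and progenitors, stood at 625 CPM in NK cells of TAN 4 and at 28 to 124 CPM in the other 7 libraries. In T cells it stood at 687, 65.1, 51.6 and 418 CPM in Ad-Lib 1, 3, 5 and 7 and at 27.3, 10.4, 106 and 18.6 CPM in TAN 2, 4, 6 and 8. Of these 10 genes 0 were called without TAN 4 and 0 without Ad-Lib 7, and 1 without Ad-Lib 1 (edgeR). Their median difference of log2 changes was 5.30 in the main fit and 2.65 without TAN 4. It was 4.72 without Ad-Lib 7 and 4.56 without Ad-Lib 1.

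Ccr2 was the only one of the 83 that was called under each of the 13 alternatives. In NK cells it stood at 589, 376, 679 and 614 CPM in Ad-Lib 1, 3, 5 and 7 and at 388, 424, 570 and 733 CPM in TAN 2, 4, 6 and 8. In cytotoxic T cells it stood at 502, 147, 258 and 318 CPM and at 121, 44.4, 36.2 and 58.0 CPM. The NK values overlapped and the T cell values did not, and the TAN change was 1.99 higher on the log2 scale in NK cells (SE 0.34, edgeR adjusted p = 0.00553).

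The 3 genes with the smallest p were Hba-a1, Tmem176b and Hbb-bs. Hba-a1 and Hbb-bs are haemoglobin genes of red blood cells. Their T cell values were 470 and 1123 CPM in TAN 4 and 309 and 696 CPM in TAN 6 but at most 18.8 and 37.5 CPM in the other libraries, while NK cells held at most 68.4 and 54.7 CPM. Tmem176b, a membrane protein common in ILC1 and dendritic cells, stood at 85.6, 74.1, 46.9 and 45.5 CPM in NK cells of Ad-Lib 1, 3, 5 and 7 and at 310, 151, 97.3 and 32.6 CPM in those of TAN 2, 4, 6 and 8. T cells held 135, 63.7, 58.6 and 66.7 CPM and 59.8, 21.4, 28.2 and 12.8 CPM (difference of log2 changes 2.37, SE 0.40, edgeR adjusted p = 0.00553).

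Of 227 genes of the 18 lists in this fit, 20 were called (8.81%, beside 1.63% of all genes), 17 with a change higher in NK cells and 3 lower. The lists were chosen with results of these data known, and 1 of these genes was called without TAN 4, and 2 without Ad-Lib 1 or without Ad-Lib 7. The median difference of log2 changes over all list genes tested was 0.240 in the main fit and 0.105 without TAN 4. It was 0.246 without Ad-Lib 1 and 0.235 without Ad-Lib 7. Klrc1 was among the 17 with a change higher in NK cells. In T cells it stood at 103, 67.3, 117 and 75.7 CPM in Ad-Lib 1, 3, 5 and 7 and at 25.6, 23.0, 29.9 and 25.5 CPM in TAN 2, 4, 6 and 8, without overlap, beside means of 311 ± 87.5 and 344 ± 174 CPM in NK cells (difference 1.58, SE 0.33, edgeR adjusted p = 0.0166). Irf8, a factor of NK maturation, stood at 173, 32.6, 122 and 297 CPM against 8.55, 12.6, 24.2 and 26.7 CPM in T cells and at means of 411 ± 98 and 336 ± 118 CPM in NK cells (difference 2.28, SE 0.47). Gzma stood at 281 ± 82 and 73.4 ± 77.3 CPM in T cells, beside 3992 ± 242 and 4075 ± 594 CPM in NK cells (difference 2.28, SE 0.53). Fcer1g, Fasl, Id2 and Ccl3 had the same direction, as did Ly6a, Tmem176a and the immediate early genes Btg2, Dusp1, Fosb, Jund, Klf6 and Zfp36.

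Lower in NK cells were Tcf7 and Hsp90aa1, among others. Hsp90aa1, a heat shock chaperone, stood at 284, 308, 351 and 402 CPM in NK cells of Ad-Lib 1, 3, 5 and 7 and at 264, 151, 278 and 179 CPM in those of TAN 2, 4, 6 and 8, without overlap, beside means of 316 ± 61.3 and 358 ± 42.5 CPM in T cells (difference -1.04, SE 0.26, edgeR adjusted p = 0.0373). Tcf7, which encodes TCF-1 and marks naive and stem-like T cells, stood at 144 ± 36 and 226 ± 48 CPM in T cells and at 80.1 ± 16.1 and 39.7 ± 22.3 CPM in NK cells (difference -1.83, SE 0.46, edgeR adjusted p = 0.0373). Outside the lists, 29 of the 46 genes with a lower change in NK cells encoded ribosomal proteins, of 88 such genes tested, a count made after the values were seen. With RLE scaling 16 of the 88 were called, and 0 without TAN 4, without Ad-Lib 1 or without Ad-Lib 7. The median difference over the ribosomal protein genes tested changed little. It was -0.650 in the main fit, -0.674 without TAN 4, -0.602 without Ad-Lib 1 and -0.605 without Ad-Lib 7. In all of these genes the NK fit on its own called none, and of the genes named here the T cell fit on its own called Ccr2, Klrc1, Irf8, Dusp1 and Ly6a, each lower with TAN. Median depth of a T cell was 5206 ± 827 UMIs for Ad-Lib against 6127 ± 566 UMIs for TAN (n = 4 each, exact permutation p = 0.143), opposite in direction to that of NK cells, and its part in these differences was not tested.

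**Figure D5:**
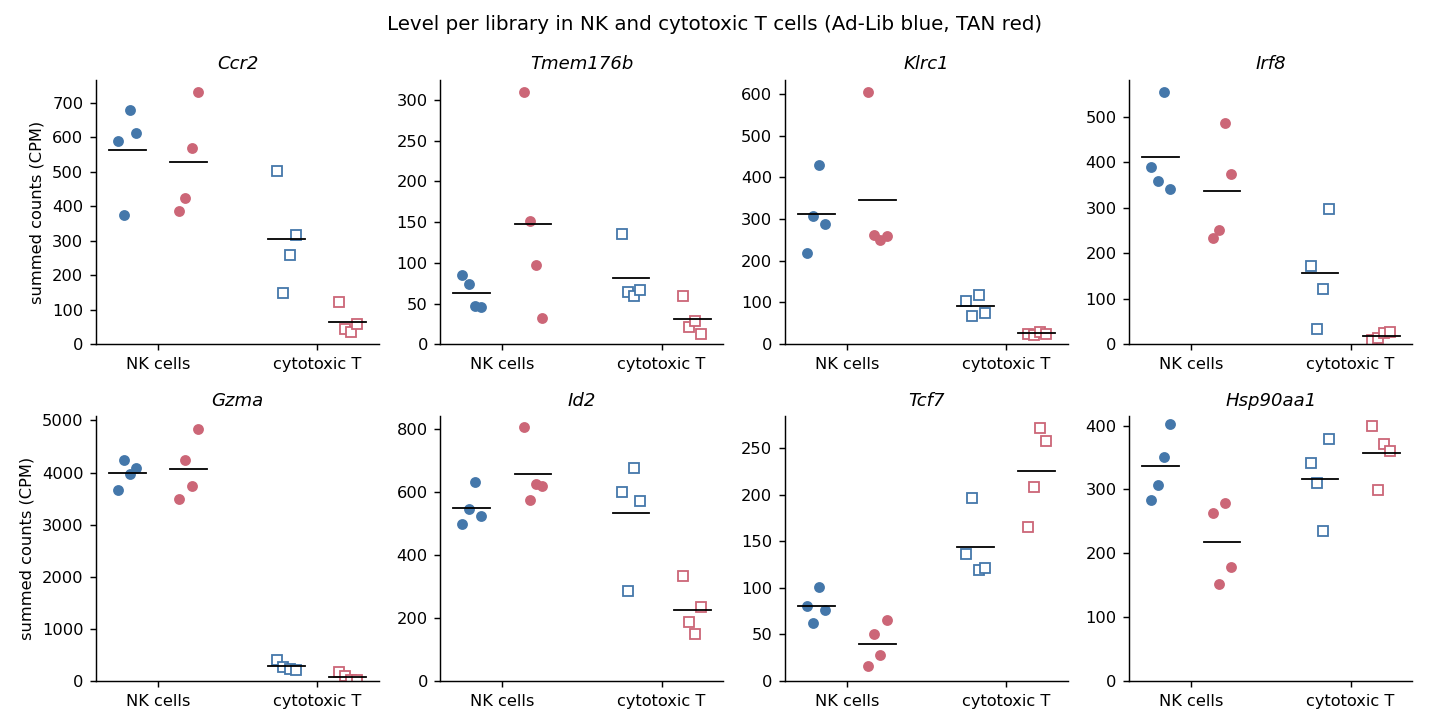
Level (CPM of summed counts, y axis) of 8 called genes in NK cells (filled circles) and cytotoxic T cells (open squares) of each library, with Ad-Lib in blue, TAN in red and lines at group means (n = 4 libraries each). Ccr2, Klrc1, Irf8, Gzma and Id2 have lower means in T cells of TAN libraries, and Tcf7 a higher one, while NK values of the 2 groups overlap for 7 of the 8 genes, all but Hsp90aa1.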

How the data were processed

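Stromal vascular cells of 8 libraries were counted by the authors with Cell Ranger on mm10. The processing notes give version 3.0.2 and the matrix headers 6.0.1. The deposited values were raw UMI counts per gene and cell. Members and gene lists were chosen with earlier results of these data known.

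Cells were filtered and gated in Python 3.11.15 as described above, and doublets were not removed. Counts were summed per library and cell type, and a library was the replicate. Shares were compared by exact permutation over 70 assignments, two-sided. Genes were tested with edgeR 4.0.16 (quasi-likelihood, TMM, filter on low counts, R 4.3.3) and, as an alternative, DESeq2 1.42.0. The NK against T cell difference was fitted with the library as a factor. Scripts were tested on simulated data. Clopper-Pearson intervals cover counting error only.

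Named genes were the 11 gate genes, the 25 leading genes by ratio, the called genes or else the 12 smallest p, the 2 to 4 highest members and every called member of each list, and the 3 leading interaction genes. Alternatives were other gates, filters, scalings, thinning depths and leaving out each library. No authors' cell annotation was used here. Some genes that this rule names are not reported here.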

Additional observations from a re-analysis of the deposited data

Results flagged for a closer look

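In NK cells, 1 library lay far from the other 3 of its group in 12 of 192 groups of 4 examined, close to the 1 in 20 that chance gives. The share among cells without Cd3 or Cd79a UMIs was 0.948% in Ad-Lib 3. Receptor genes with such a library were Klra4 (155 CPM in TAN 2), Klrc1 (605 CPM in TAN 2) and Klra3 (187 CPM in Ad-Lib 5). Others were Jund (1768 CPM in TAN 2), Ifi203 (341 CPM in Ad-Lib 7), Hspa5 (546 CPM in Ad-Lib 7), mt-Atp6 (7286 CPM in TAN 6), mt-Co3 (3389 CPM in Ad-Lib 7), Per1 (0 CPM in TAN 4), Cxcr4 (179 CPM in TAN 8) and Hmgb2 (963 CPM in Ad-Lib 1).

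The TAN change differed between NK and cytotoxic T cells for 83 genes (edgeR), and the values here are the log2 change in NK cells minus that in T cells. Higher in NK cells were Ly6a (3.3), Tmem176b (2.37), Irf8 (2.28), Gzma (2.28), Ccl3 (2.23), Tmem176a (2.05), Ccr2 (1.99), Zfp36 (1.85), Fosb (1.62), Klrc1 (1.58), Fcer1g (1.52), Fasl (1.5), Dusp1 (1.33), Id2 (1.25), Klf6 (1.16), Btg2 (1.16) and Jund (1.02). Lower were Hba-a1 (-7.37), Hbb-bs (-4.94), Tcf7 (-1.83) and Hsp90aa1 (-1.04). Both cell types came from the same libraries.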

How the results depend on the processing

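Shares are given here as TAN minus Ad-Lib in percentage points with exact permutation p, and the denominator without T and B cells, the thinned gate and the gates without the other-lineage genes or Pecam1 were added after seeing the data. With cells holding any T cell receptor UMI left out, 25 NK cells remained and the difference was -0.00902 of kept cells (exact p = 0.771), -0.0940 of Ptprc cells (exact p = 0.543), -1.38 of NK plus Cd3 cells (exact p = 0.114) and, reversed, 0.00823 of cells without Cd3 or Cd79a (exact p = 0.771). Thinned to 1500 UMIs it was -1.04 of Ptprc cells (exact p = 0.0571) and -0.0945 of cells without Cd3 or Cd79a (exact p = 0.257). The latter was -0.211 at 1 or more Nkg7 UMIs (exact p = 0.0857), -0.201 at 3 or more (exact p = 0.0571), -0.213 above 1500 UMIs (exact p = 0.2), -0.230 without the 4 other-lineage genes (exact p = 0.0571) and -0.193 without Pecam1 (exact p = 0.0857). Leaving out each library gave -0.314 to -0.266 of kept, -1.82 to -1.39 of Ptprc, -15.5 to -11.1 of NK plus Cd3 cells and -0.254 to -0.136 of the last. The exact p rose to 0.0571 without any single TAN library for the last and for NK plus Cd3 cells, without TAN 4, 6 or 8 for Ptprc cells, and to 0.114 without Ad-Lib 3 for the last. NK calls then numbered 0 to 1 (Egr1, lower, without Ad-Lib 5) and NK against T calls 3 to 195. Without the count filter 43 and 206 genes were called, and Ccl3, Zbtb20, Tut4 and Tuba1b passed in NK cells. No paired analysis was possible because the groups share no replicate numbers. The gates without T cell receptor UMIs and with fewer than 2 other-lineage UMIs could not be fitted, with under 10 NK cells in a library. Depth limits small changes, with 1 UMI worth up to 16.3 CPM.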
